A study of Mus musculus with 12 samples.

Results

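The collagen alpha chain genes were described in hippocampal RNA-seq of mice at natural old age. All rows whose symbol is Col, a type number, the letter a and a chain number were taken, which gave 44 genes of 27833 in the deposited table. The mice were wild-type male C57BL/6J animals aged 20 months, without a transgene or a young reference group. CON mice received normal saline, PQQ-L mice 5 mg/kg/day and PQQ-H mice 10 mg/kg/day of PQQ (pyrroloquinoline quinone, a redox cofactor taken up from food), by oral gavage for 14 days. Of the 6 mice assigned to each group, 3 CON, 5 PQQ-L and 4 PQQ-H libraries were analyzed, 12 in all. The values are FPKM, which divides the fragments on a gene by its length in kilobases and by the library total, so that levels of different genes can be set side by side. Reads on genes ranged from 29654553 to 38179496 per library. Nothing in the labels states that each library is a separate mouse, and the p-values measure the spread between these libraries only.

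Collagens are secreted proteins built from alpha chains that wind around each other into a helix rich in glycine and proline. Fibrillar collagens form the fibres of connective tissue, type IV chains form the network of basement membranes, and other types bind to fibres, form short-chain lattices or stay anchored in cell membranes. In the brain, collagen is known mainly from blood vessel walls, the meninges and the stroma of the choroid plexus, while the tissue between neurons holds little fibrous collagen.

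Markers of other tissue differed between the libraries and are given before the results. The summed FPKM of 9 striatal markers was 3276 in CON 1, 1338 in CON 3, 2459 in PQQ-H 1 and 1309 in PQQ-H 2, but only 35.2 to 175 in the other 8 libraries. The 9 markers of hippocampal neurons summed to 34.8 to 98.4 in those 4 libraries and to 155 to 412 in the others. These 4 libraries therefore went against their hippocampus label, and results are also given with and without them. PQQ-L 3 was kept among the other 8, with 175 for the striatal and 155 for the hippocampal markers. The 16 markers of choroid plexus epithelium, the cell layer that secretes cerebrospinal fluid, summed to 1802 to 5993 in CON, 104 to 203 in PQQ-L and 78.7 to 96.6 in PQQ-H. Of these, 13 were called lower in PQQ-L and 14 in PQQ-H, against 0.471% and 0.819% of all genes tested. Ttr, which encodes the thyroxine carrier transthyretin and is the most abundant of the 16, was 1499 to 5315 FPKM in CON and 12.8 to 113 in the PQQ groups. Kcne2 was at 0 in PQQ-L 1, PQQ-L 2 and PQQ-H 4, and Folr1, Otx2, Slc4a5 and Krt8 were at 0 in PQQ-H 4. The mean level required for a test includes the CON libraries, so such markers could pass it through CON. For meningeal and perivascular fibroblasts, 15 markers summed to 112 to 169 in CON, 52.6 to 87.0 in PQQ-L and 39.8 to 63.9 in PQQ-H. Their sum and their median differed in PQQ-L, where the median log2FC of the 11 tested was -0.08, with 8 below 0. In PQQ-H it was -1.06, with 11 below 0. Of the 11 fibroblast markers tested, 1 was called lower in PQQ-L (Igfbp2) and 2 in PQQ-H (Igf2 and Igfbp2), and Slc22a2 was at 0 in CON 1, PQQ-L 2 and PQQ-H 4. The ependymal sum was 28.8 to 49.3 in CON, 13.7 to 34.2 in PQQ-L and 5.30 to 16.9 in PQQ-H, with 0 and 2 of 6 markers called. The sums of mural cell and endothelial markers overlapped between all groups, with 0 of 10 and 0 of 9 markers called. Of the thalamic, oligodendrocyte and blood markers, 0 of 7, 0 of 8 and 0 of 5 were called in either comparison, as were 0 of 9 striatal and 0 of 9 hippocampal neuron markers. The lack of calls does not mean equal levels. In PQQ-L and PQQ-H the median log2FC was -3.07 and -0.92 for striatal and 1.70 and 1.12 for hippocampal neuron markers. For thalamic markers it was -1.13 and -1.61. In bulk tissue, fewer cells of a type and less RNA per cell cannot be told apart.

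**Figure D1:**
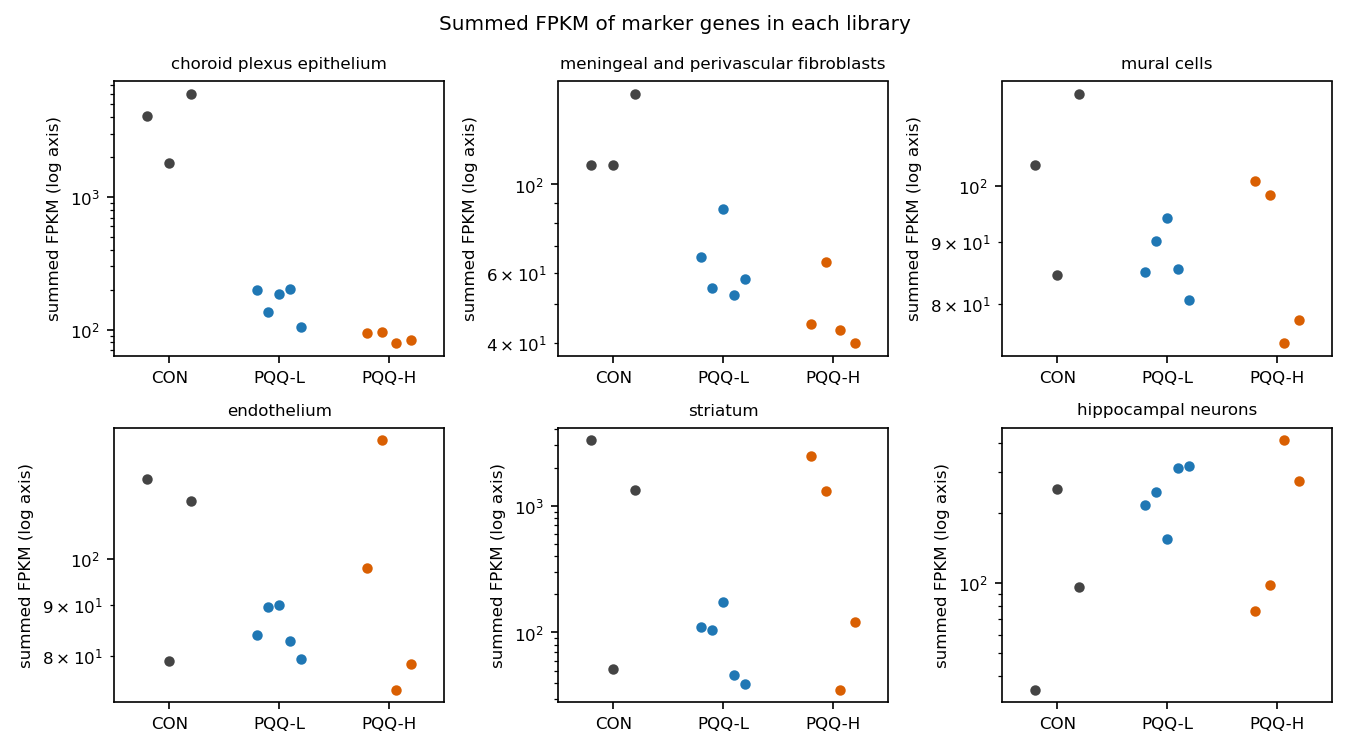
Summed FPKM of 6 marker lists (log axis) in each library, with 1 point per library and the groups side by side. The choroid plexus sums of CON (1802 to 5993) lie above all PQQ libraries, the mural and endothelial sums overlap, and CON 1, CON 3, PQQ-H 1 and PQQ-H 2 lie above 1000 in the striatal panel.

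Collagen genes were lower in the PQQ groups for a limited set of chains, while the vascular type IV chains Col4a1 and Col4a2 did not pass the test. Calls required a |log2FC| above 1 with an adjusted p below 0.05 in limma, fitted to log2(FPKM + 0.1) of all 12 libraries for 13796 genes that averaged at least 0.5 FPKM. Of the 44 collagen genes, 18 passed this mean, and 3 of them were called lower in PQQ-L (Col1a1, Col8a1 and Col9a3), where 0.471% of all genes tested were called lower. In PQQ-H, 6 of the 18 were called lower (Col1a1, Col1a2, Col8a1, Col8a2, Col9a3 and Col18a1), against 0.819% of all genes tested. No collagen gene was called higher in either comparison. Both comparisons share the CON libraries. Some of the 18 passed the mean through the CON libraries (Col1a1, Col8a1 and Col18a1 were under 0.5 FPKM on average in both PQQ groups, and Col8a2 was at 0.717 in PQQ-L and 0.135 in PQQ-H), so these counts describe the genes that passed and not the family.

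Over the whole family, limma on all 27659 genes above 0 called 4 of 44 collagen genes lower in PQQ-L, against 0.405% of genes, and 7 of 44 in PQQ-H, against 0.611%. Col3a1 was the gene added in both. The median log2FC of the 44 genes in that fit was -0.34 (PQQ-L) and -0.45 (PQQ-H), beside -0.02 over all genes in both comparisons. In PQQ-L, 31 of the 44 had a log2FC below 0, and in PQQ-H 32 did. A limma-voom fit on the whole reads behind the FPKM (16798 genes with at least 10 reads on average, 41 of them collagens) called 7 lower in PQQ-L, against 0.732% of genes, and 7 in PQQ-H, against 0.947%. Col1a1, Col1a2, Col3a1, Col8a1, Col9a3 and Col18a1 were called in both, with Col17a1 in PQQ-L and Col8a2 in PQQ-H. Col17a1 had 9 to 72 reads in CON, 0 to 4 in PQQ-L and 0 to 9 in PQQ-H. It thus passed the mean of 10 reads only through CON.

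Without any fit, every PQQ-L library lay below every CON library for 9 of the 44 genes (20.5%), as it did for 5.85% of all genes above 0. The 9 were Col1a1, Col1a2, Col3a1, Col8a1, Col9a1, Col9a2, Col9a3, Col17a1 and Col18a1. For PQQ-H the same held for 15 genes (34.1%), against 4.95% of all genes. They were those 9 together with Col4a6, Col5a2, Col6a3, Col8a2, Col14a1 and Col26a1. In the other direction, no collagen gene had all PQQ-L libraries above CON, against 2.03% of all genes, and 1 had all PQQ-H libraries above CON (Col11a1), against 1.23%. The FPKM of all 44 genes added up to 47.8 to 60.9 in CON, 31.1 to 51.0 in PQQ-L and 27.3 to 40.3 in PQQ-H.

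**Figure D2:**
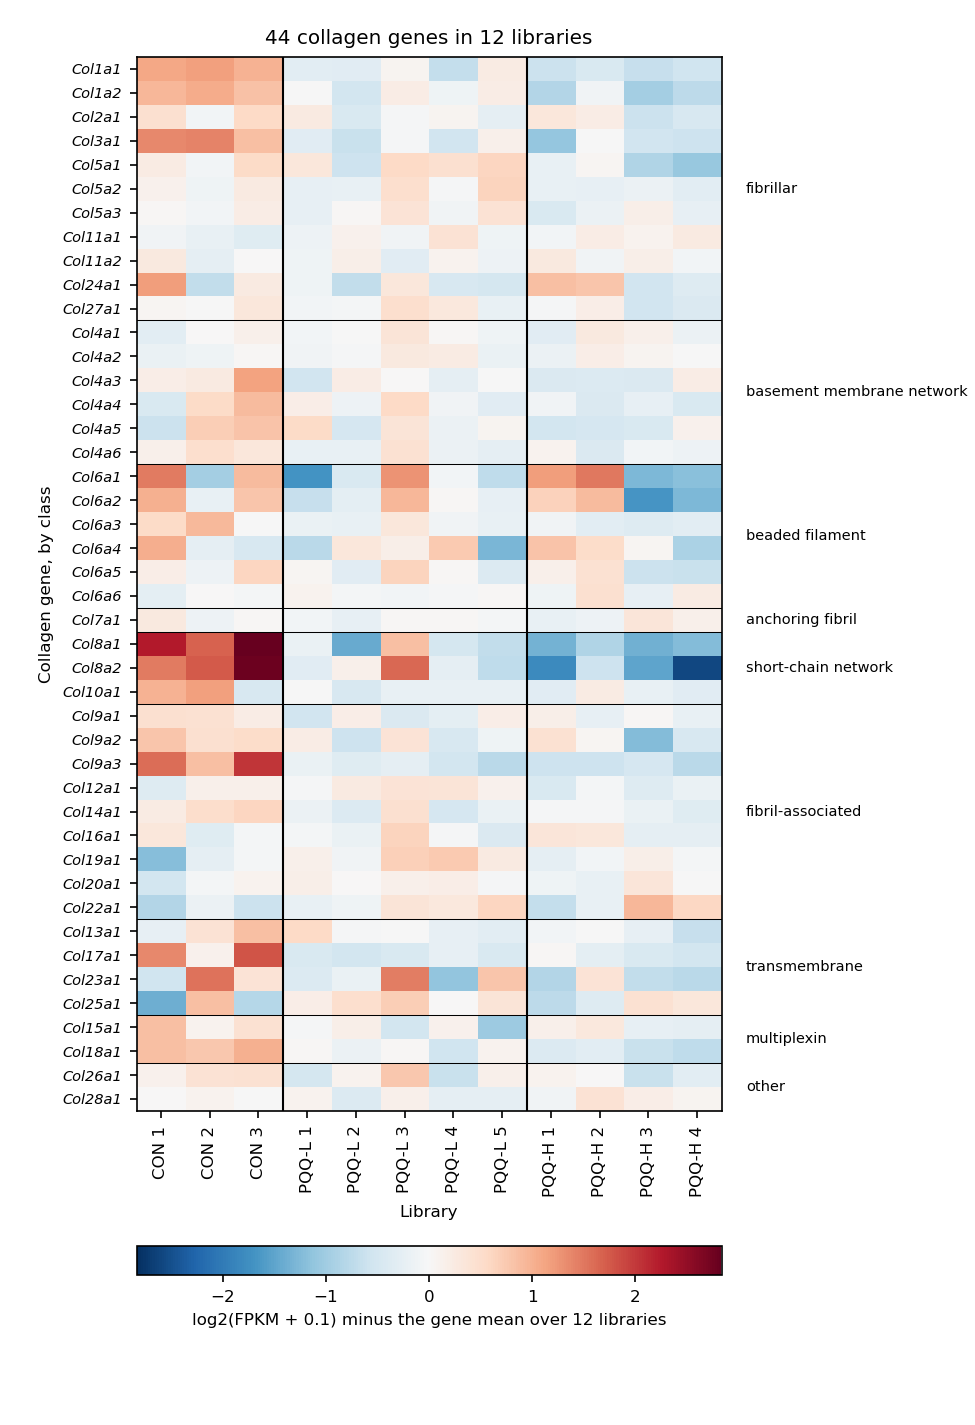
Levels of the 44 collagen genes (rows, by class) in the 12 libraries (columns), as log2(FPKM + 0.1) minus the mean of each gene. Red is above and blue below the gene mean; Col1a1, Col1a2, Col3a1, Col8a1, Col9a3 and Col18a1 are red in all 3 CON libraries, while Col6a1 is red in CON 1, CON 3, PQQ-L 3, PQQ-H 1 and PQQ-H 2.

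The bases before the start sites of the called genes are shown as sequence context for the 6 genes on which the comparison turns. Each run is the 250 bases upstream of a RefSeq start on GRCm38.p6, 5′ to 3′ on the strand of the gene, with 3 motifs in capitals: the CCAAT box, whose other strand reads ATTGG, the TATA box TATAAA, whose other strand reads TTTATA, and the GC box GGGCGG, whose other strand reads CCGCCC. The FPKM were made on mm39, so these positions do not apply to the deposited values. Col1a2 lies on the plus strand at chr6:4505368-4505617, Col8a1 on the minus strand at chr16:57754738-57754987 and Col8a2 on the plus strand at chr4:126286544-126286793. Col18a1 has starts on the minus strand with windows at chr10:77166531-77166780 (upstream start) and chr10:77113706-77113955 (downstream start). Col1a1 and Col9a3 had no entry.
Col1a2: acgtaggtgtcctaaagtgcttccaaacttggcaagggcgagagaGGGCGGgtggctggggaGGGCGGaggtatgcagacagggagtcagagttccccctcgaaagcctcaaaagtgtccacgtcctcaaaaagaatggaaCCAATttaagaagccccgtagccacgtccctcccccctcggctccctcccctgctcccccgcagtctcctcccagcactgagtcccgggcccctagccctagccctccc
Col8a1: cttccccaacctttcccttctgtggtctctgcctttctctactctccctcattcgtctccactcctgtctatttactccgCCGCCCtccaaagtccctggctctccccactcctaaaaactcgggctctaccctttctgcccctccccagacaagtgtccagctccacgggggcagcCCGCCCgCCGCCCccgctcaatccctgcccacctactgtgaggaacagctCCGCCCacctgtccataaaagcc
Col8a2: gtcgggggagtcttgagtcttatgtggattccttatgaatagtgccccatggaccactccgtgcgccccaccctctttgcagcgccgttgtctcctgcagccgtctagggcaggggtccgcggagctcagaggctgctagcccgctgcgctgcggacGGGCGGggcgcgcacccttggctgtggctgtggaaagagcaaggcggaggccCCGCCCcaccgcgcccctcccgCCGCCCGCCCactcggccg
Col18a1 upstream start: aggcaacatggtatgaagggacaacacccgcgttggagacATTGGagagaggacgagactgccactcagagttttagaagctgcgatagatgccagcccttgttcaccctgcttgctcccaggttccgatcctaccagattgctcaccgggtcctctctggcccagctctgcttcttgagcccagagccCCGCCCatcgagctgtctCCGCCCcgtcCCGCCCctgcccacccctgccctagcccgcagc
Col18a1 downstream start: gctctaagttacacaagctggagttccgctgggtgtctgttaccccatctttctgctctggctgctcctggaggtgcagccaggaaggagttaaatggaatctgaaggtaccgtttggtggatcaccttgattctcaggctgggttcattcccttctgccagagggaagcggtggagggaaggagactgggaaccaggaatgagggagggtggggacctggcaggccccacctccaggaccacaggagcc
GGGCGG was found 2 times before Col1a2, 4 times before Col8a1, 4 times before Col8a2 and 3 times before the upstream start of Col18a1, and it was not found before its downstream start. A CCAAT box, the element known from many collagen promoters, was found 109 bases before the start of Col1a2. The same letters stood 210 bases before the upstream start of Col18a1, and they were in neither Col8a1 nor Col8a2. TATAAA was in none of these 5 windows. Among the 38 windows of the 35 collagen genes with an entry, 57.9% held GGGCGG, 34.2% CCAAT and 13.2% TATAAA. Among all 32851 windows of the same length, the shares were 32.7%, 33.8% and 12.4%. A match is a run of letters and not a bound site.

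Of the 11 fibrillar genes, Col1a1 and Col1a2 changed in PQQ-H and Col1a1 in PQQ-L. Col1a1 and Col1a2 encode the chains of type I collagen, the main collagen of fibrous tissue. Col1a1 was 1.29, 1.34 and 1.17 FPKM in CON 1 to 3, 0.427, 0.420, 0.579, 0.302 and 0.652 in PQQ-L 1 to 5, and 0.321, 0.380, 0.311 and 0.335 in PQQ-H 1 to 4. All CON libraries lay above all PQQ libraries, on 63 to 271 reads per library. Against CON (1.27 ± 0.0860, SD, n = 3), the log2FC was -1.28 ± 0.209 (SE) in PQQ-L (0.476 ± 0.139, n = 5), with a limma adjusted p of 0.0209. In PQQ-H (0.337 ± 0.0303, n = 4) it was -1.65 ± 0.219, with a limma adjusted p of 0.00366.

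Col1a2 was 2.43, 2.63 and 2.25 FPKM in CON, 1.21, 0.818, 1.43, 1.11 and 1.43 in PQQ-L, and 0.637, 1.12, 0.571 and 0.683 in PQQ-H. Again no PQQ library reached the lowest CON library. The log2FC in PQQ-H was -1.61 ± 0.228 (limma adjusted p = 0.00530), and in PQQ-L it was -0.99 ± 0.218 (adjusted p = 0.0830), which was not called. In CON the mean of Col1a2 was 2.44 FPKM and that of Col1a1 1.27.

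Col3a1, the chain of type III collagen in vessel walls and soft tissue, was below the mean of 0.5 FPKM but showed the same order of groups. Its FPKM was 0.511, 0.527 and 0.327 in CON, 0.0518 to 0.163 in PQQ-L (median 0.0899) and 0.0102 to 0.133 in PQQ-H (median 0.0595). In the limma fit on all genes above 0, its log2FC was -1.49 ± 0.265 in PQQ-L (adjusted p = 0.0327) and -1.77 ± 0.277 in PQQ-H (adjusted p = 0.0125). These values rest on 61 to 101 reads per CON library and 2 to 31 reads per PQQ library.

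The other fibrillar genes did not pass the test. Col5a1, which helps to start type I fibrils, was 0.440 to 0.733 FPKM in CON, 0.280 to 0.764 in PQQ-L and 0.172 to 0.493 in PQQ-H, with a log2FC of 0.04 ± 0.337 and -0.75 ± 0.352. Col5a2, its partner chain, was 0.234 to 0.330 in CON, 0.210 to 0.465 in PQQ-L and 0.195 to 0.223 in PQQ-H. Thus the PQQ-H libraries of Col5a2 lay below CON, while those of PQQ-L overlapped it. Col11a2, a chain of type XI collagen, had nearly equal levels of 1.72 ± 0.328, 1.61 ± 0.230 and 1.78 ± 0.238 FPKM in CON, PQQ-L and PQQ-H. Col11a1 had a log2FC above 0 in both comparisons, with 0.173 to 0.222 in CON, 0.215 to 0.360 in PQQ-L and 0.227 to 0.313 in PQQ-H, and a log2FC of 0.26 ± 0.183 and 0.35 ± 0.192 in the fit on all genes above 0. Col2a1, Col5a3, Col24a1 and Col27a1 stayed below 0.6 FPKM in every library, and their groups overlapped.

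The short-chain genes Col8a1 and Col8a2 had the largest |log2FC| of the 18 collagen genes tested on FPKM. They encode type VIII collagen, a lattice-forming collagen known from vessel walls and from the membrane beneath the corneal endothelium. Col8a1 was 2.64, 1.72 and 4.00 FPKM in CON, 0.403, 0.113, 0.940, 0.306 and 0.252 in PQQ-L, and 0.128, 0.217, 0.122 and 0.143 in PQQ-H. Every PQQ library was under the lowest CON library, and PQQ-L 3 was the highest among them. The mean of CON was 6.92 times that of PQQ-L and 18.2 times that of PQQ-H. On the log2(FPKM + 0.1) scale the log2FC was -2.65 ± 0.436 in PQQ-L (limma adjusted p = 0.0211) and -3.45 ± 0.456 in PQQ-H (limma adjusted p = 0.00357). A pseudocount of this size understates the change of genes at so low a level.

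Col8a2 was 1.68, 2.03 and 4.28 FPKM in CON, 0.409, 0.602, 1.86, 0.431 and 0.288 in PQQ-L, and 0.0825, 0.324, 0.127 and 0.00652 in PQQ-H. PQQ-L 3 lay within the range of CON, and the PQQ-H libraries held only 1 to 47 reads. Its log2FC was -3.62 ± 0.582 in PQQ-H (limma adjusted p = 0.0114) and -1.91 ± 0.557 in PQQ-L (adjusted p = 0.180), where it was not called. Col10a1, the third short-chain gene, which is known from growth plate cartilage, had 0 to 19 reads per library and was 0.171, 0.205 and 0 FPKM in CON and 0 to 0.0592 in the PQQ groups.

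**Figure D3:**
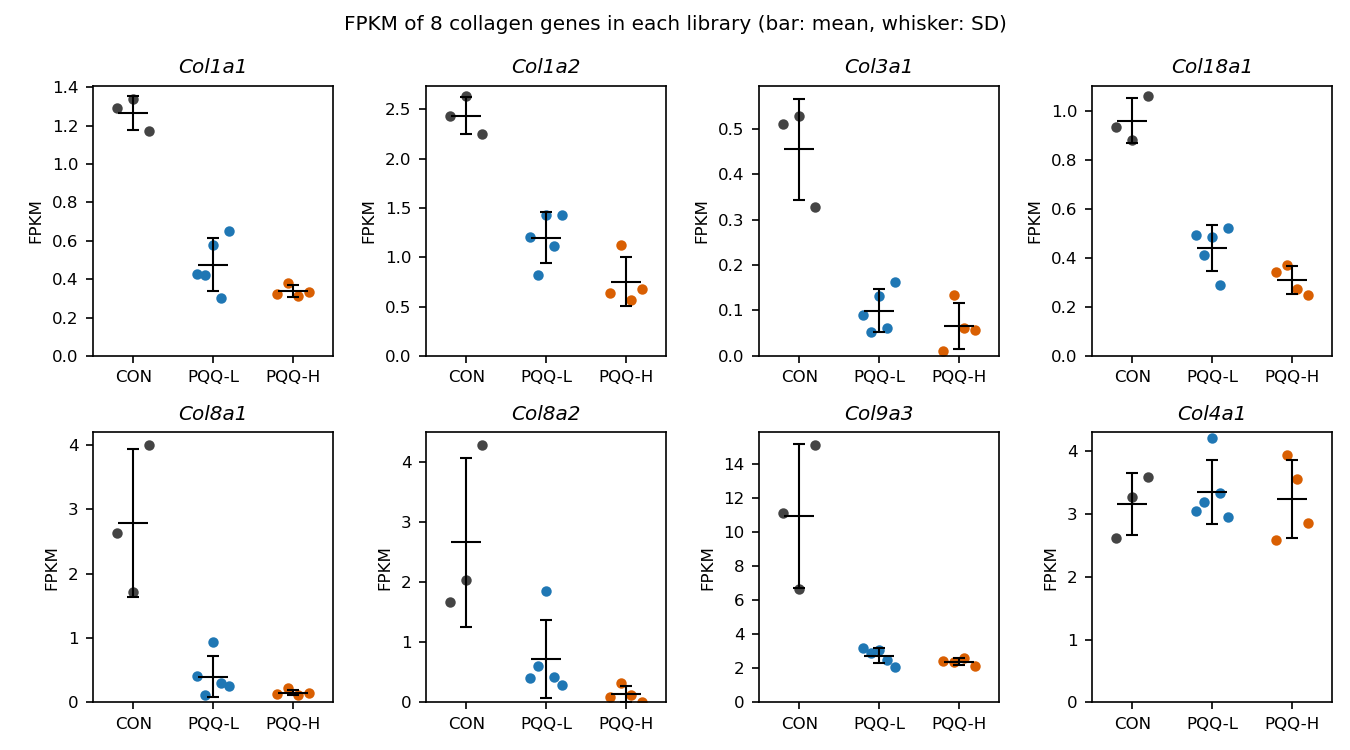
FPKM of 8 collagen genes in each library of CON (n = 3), PQQ-L (n = 5) and PQQ-H (n = 4), with the mean as a bar and the SD as a whisker. The CON points of Col1a1, Col1a2, Col3a1, Col18a1, Col8a1 and Col9a3 lie above all PQQ points, Col8a2 has 1 PQQ-L library at 1.86 within the CON range, and Col4a1 overlaps between the groups.

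Among the 9 fibril-associated genes, Col9a3 changed in both groups and its partner chains did not pass the test. Type IX collagen, made from Col9a1, Col9a2 and Col9a3 chains, sits on the surface of cartilage fibrils. Col9a3 was 11.1, 6.66 and 15.1 FPKM in CON, 3.18, 2.87, 3.06, 2.51 and 2.10 in PQQ-L, and 2.40, 2.39, 2.61 and 2.12 in PQQ-H. It was the collagen gene with the highest level in CON, and the lowest CON library was above the highest PQQ library. The log2FC was -1.89 ± 0.221 in PQQ-L (limma adjusted p = 0.00235) and -2.08 ± 0.231 in PQQ-H (limma adjusted p = 0.00108), the lowest adjusted p of the collagen genes in each comparison.

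Col9a2 was 2.63, 2.08 and 2.19 FPKM in CON, 0.954 to 1.97 in PQQ-L (median 1.36) and 0.579 to 2.04 in PQQ-H (median 1.30). No library of the PQQ groups reached the lowest CON library, but the log2FC of -0.71 ± 0.340 and -0.89 ± 0.355 did not pass the test (limma adjusted p = 0.249 and 0.429). Col9a1 was at 0.134 to 0.179 FPKM in CON and 0.0393 to 0.131 in the PQQ groups, on 6 to 27 reads. The type IX chains were thus at unequal levels in CON, with a mean of 10.9 FPKM for Col9a3, 2.30 for Col9a2 and 0.163 for Col9a1.

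Col19a1 and Col20a1 had a log2FC above 0, and neither was called. Col19a1, a collagen made by some neurons, was 0.227, 0.533 and 0.627 FPKM in CON, 0.598 to 1.15 in PQQ-L and 0.533 to 0.744 in PQQ-H, with a log2FC of 0.84 ± 0.281 (limma adjusted p = 0.210) and 0.45 ± 0.294 (adjusted p = 0.697). Col20a1 was 1.11 ± 0.263 FPKM in CON, 1.33 ± 0.0951 in PQQ-L and 1.25 ± 0.237 in PQQ-H. Col16a1 had a log2FC of 0.02 ± 0.261 and 0.07 ± 0.273. Col14a1, which binds type I fibrils, was 0.142 to 0.214 FPKM in CON, 0.0479 to 0.181 in PQQ-L and 0.0616 to 0.0999 in PQQ-H, so that PQQ-L 3 overlapped CON. Col12a1 and Col22a1 overlapped between the groups.

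Of the multiplexins, Col18a1 changed in PQQ-H. It encodes a basement membrane collagen whose end fragment is endostatin. Its FPKM was 0.935, 0.882 and 1.06 in CON, 0.491, 0.411, 0.486, 0.290 and 0.521 in PQQ-L, and 0.342, 0.371, 0.271 and 0.249 in PQQ-H. The groups of CON and PQQ did not overlap, on 65 to 272 reads per library. Its log2FC was -1.38 ± 0.213 in PQQ-H (limma adjusted p = 0.00873) and -0.99 ± 0.204 in PQQ-L (adjusted p = 0.0606). The related Col15a1 was 0.847, 0.463 and 0.606 FPKM in CON, 0.154 to 0.487 in PQQ-L and 0.335 to 0.545 in PQQ-H, and overlapped.

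None of the 4 membrane-anchored collagens passed the test on FPKM. Col25a1, whose shed ectodomain is found in amyloid plaques, had the highest mean level of all 44 genes (5.78 FPKM). It was 1.94, 9.54 and 2.98 FPKM in CON, 5.99, 7.38, 8.55, 5.33 and 6.77 in PQQ-L, and 3.10, 4.08, 7.15 and 6.56 in PQQ-H. The 4 lowest values were those of the 4 libraries with high striatal markers. Its log2FC was 0.80 ± 0.430 in PQQ-L (limma adjusted p = 0.271) and 0.36 ± 0.450 in PQQ-H (adjusted p = 0.842), and without CON 2 it was called higher in PQQ-L at 1.44.

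Col23a1 was 0.405, 2.05 and 0.879 FPKM in CON, 0.242 to 1.95 in PQQ-L and 0.319 to 0.867 in PQQ-H, with a log2FC of -0.35 ± 0.597 and -0.93 ± 0.624. Col17a1, an anchor of epithelial cells in skin, was 0.265, 0.0550 and 0.390 FPKM in CON and at most 0.0206 in PQQ-L and 0.0464 in PQQ-H. No PQQ library of Col17a1 reached CON, but the groups rest on 9 to 72 reads in CON and 0 to 9 in the PQQ libraries. In the fit on all genes above 0 its limma adjusted p was 0.0516 for PQQ-L and 0.0724 for PQQ-H, and the limma-voom fit called it lower in PQQ-L at a log2FC of -4.64 ± 0.952, beyond that of Col8a1 in the same fit (-3.06 ± 0.455). Col13a1 overlapped between all groups.

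The basement membrane chains Col4a1 and Col4a2 were among the collagen genes with the highest levels, and they did not pass the test in either group (limma adjusted p from 0.498 to 0.970). Col4a1 was 2.62, 3.27 and 3.59 FPKM in CON, 3.04, 3.18, 4.21, 3.33 and 2.95 in PQQ-L, and 2.58, 3.94, 3.56 and 2.86 in PQQ-H. Col4a2 was 3.17, 3.29 and 3.67 in CON, 3.34, 3.52, 4.40, 4.28 and 3.13 in PQQ-L, and 3.23, 4.13, 3.84 and 3.58 in PQQ-H. These genes encode the chains of the common type IV network of vessels and start 21 bases apart on opposite strands. Col4a1 had a log2FC of 0.08 ± 0.164 (PQQ-L) and 0.02 ± 0.172 (PQQ-H), and that of Col4a2 0.13 ± 0.129 and 0.12 ± 0.135. These standard errors on 599 to 1015 reads per library were smaller than those of Col1a1.

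The other type IV chains were at or below 0.592 FPKM. Col4a3 and Col4a4, which form the network of the kidney filter, were 0.0691 to 0.230 and 0.0318 to 0.228 FPKM in CON. In PQQ-H they were 0.0127 to 0.0718 and 0.0303 to 0.0643, so that both overlapped CON. Col4a5 was 0.159 to 0.592 in CON and 0.174 to 0.326 in PQQ-H. Col4a6, its neighbour on the X chromosome, was 0.129 to 0.189 in CON, 0.0736 to 0.178 in PQQ-L and 0.0548 to 0.122 in PQQ-H, which lay below CON.

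The beaded filament genes Col6a1 and Col6a2, chains of the microfibrils around cells, varied widely within each group. Col6a1 was 9.93, 1.74 and 6.64 FPKM in CON, 1.01, 2.57, 8.57, 3.32 and 2.07 in PQQ-L, and 8.10, 10.1, 1.39 and 1.48 in PQQ-H. Col6a2 was 1.83, 0.734 and 1.56 in CON, 0.513, 0.697, 1.76, 0.879 and 0.716 in PQQ-L, and 1.42, 1.69, 0.203 and 0.301 in PQQ-H. The same 5 libraries were highest for both chains, namely CON 1, CON 3, PQQ-L 3, PQQ-H 1 and PQQ-H 2, and 4 of them are those with high striatal markers. The log2FC of Col6a1 was -0.80 ± 0.828 and -0.41 ± 0.866, and that of Col6a2 -0.57 ± 0.598 and -0.87 ± 0.626 (PQQ-L and PQQ-H), so that neither could be told from 0 at this spread. Col6a3 was 0.198 to 0.466 FPKM in CON, 0.159 to 0.275 in PQQ-L and 0.133 to 0.181 in PQQ-H, which lay below CON. Col6a4, Col6a5, Col6a6, the anchoring fibril gene Col7a1 and Col28a1 stayed below 0.5 FPKM in every library and overlapped. Col26a1 was 0.372 to 0.491 in CON and 0.184 to 0.368 in PQQ-H, which did not overlap.

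By class, the summed FPKM of the 11 fibrillar genes was 7.53 to 8.57 in CON, 4.65 to 6.01 in PQQ-L and 3.92 to 5.25 in PQQ-H, without overlap with CON. The 9 fibril-associated genes summed to 11.9 to 20.7, 6.83 to 9.61 and 6.30 to 7.56, and the 3 short-chain genes to 3.95 to 8.28, 0.559 to 2.81 and 0.159 to 0.600. The mean fibril-associated sum was 16.3, 7.87 and 6.97 in CON, PQQ-L and PQQ-H, of which Col9a3 alone was 10.9, 2.74 and 2.38. Col12a1, Col16a1, Col19a1, Col20a1 and Col22a1 of that class had higher means in PQQ-L than in CON. A class sum follows its most abundant genes and does not describe each member. The multiplexin sum was 1.34 to 1.78 in CON, 0.675 to 0.899 in PQQ-L and 0.584 to 0.917 in PQQ-H. The 6 basement membrane genes overlapped, with 6.18 to 8.46, 6.57 to 9.40 and 6.18 to 8.35. Beaded filament and transmembrane sums overlapped too.

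**Figure D4:**
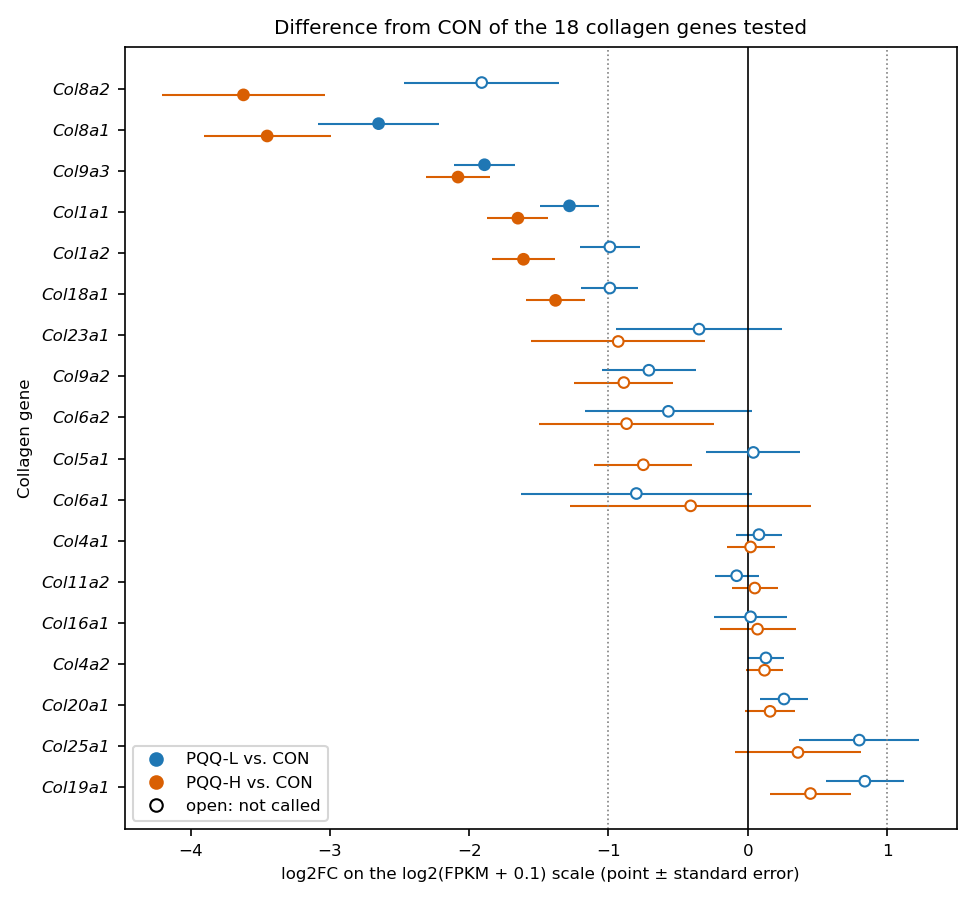
Log2FC of the 18 collagen genes tested (points, with the SE as lines) in PQQ-L and PQQ-H against the shared CON libraries, on the log2(FPKM + 0.1) scale. Filled points were called, with Col8a2 lowest at -3.62 in PQQ-H and with Col4a1 and Col4a2 next to 0.

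Between the doses, no collagen gene was called in PQQ-H vs. PQQ-L, nor was any gene at all (0% of those tested). At an unadjusted p below 0.05, 3 collagen genes and 1125 genes in all passed, and the limma-voom fit also called 0. These 3 were Col1a2 with a log2FC of -0.63 ± 0.201, Col5a1 with -0.79 ± 0.309 and Col8a2 with -1.71 ± 0.512, each with a limma adjusted p of 0.580. Of the 18 genes tested, 15 had a log2FC below 0 in this comparison. In the fit on FPKM, Col1a2, Col8a2 and Col18a1 passed against CON in PQQ-H and not in PQQ-L, while limma-voom called Col1a2 and Col18a1 in both, and a difference between the doses was not shown for them.

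The values of the 6 called genes are given by striatal markers. Every PQQ-H library lay below every CON library for each of them, which fixes the order of these groups in any subset, so only the levels are described. Within the 4 libraries with a striatal sum above 1000, Col9a3 was 11.1 to 15.1 FPKM in CON and 2.39 to 2.40 in PQQ-H, and Col8a1 was 2.64 to 4.00 and 0.128 to 0.217. In the same 4 libraries Col8a2 was 1.68 to 4.28 in CON and 0.0825 to 0.324 in PQQ-H, and Col1a1 was 1.17 to 1.29 and 0.321 to 0.380. Col1a2 was 2.25 to 2.43 and 0.637 to 1.12 there, and Col18a1 0.935 to 1.06 and 0.342 to 0.371. In the other 8 libraries, CON 2 alone stood for CON, and it had the highest thalamic sum of all libraries (125). Its Col9a3 was 6.66 FPKM, against 2.10 to 3.18 in PQQ-L and 2.12 to 2.61 in PQQ-H. When the 4 libraries were left out, 0 collagen genes were called in either comparison, with a lone CON library that was assumed to vary like the other groups. The log2FC in PQQ-L and PQQ-H was then -1.26 and -1.46 for Col9a3 (limma adjusted p = 0.317 and 0.147), smaller in size than with all libraries, and -1.36 and -1.77 for Col1a1 (adjusted p = 0.806 and 0.252), which was no smaller. In PQQ-H, Col1a2 was at -1.92, Col8a1 at -2.97, Col8a2 at -3.78 and Col18a1 at -1.45. With a striatal score in the fit, 1 collagen gene was called in PQQ-L, against 6 in PQQ-H. The median log2FC of the 18 collagen genes was then 0.02 in PQQ-L, where it was -0.46 without the score. In PQQ-H it was -0.63 with the score and -0.81 without. No PQQ-L library had a striatal sum above 1000, while CON 1 and CON 3 did, so score and group overlap in this fit. The choroid plexus sums set CON apart from PQQ, with all CON libraries at 1802 or above and all PQQ libraries at 203 or below. Within CON they were 4090, 1802 and 5993 in CON 1 to 3, the order also seen for Col9a3, Col8a1 and Col18a1. Col1a1 and Col1a2 were instead highest in CON 2 and lowest in CON 3, and Col8a2 was lowest in CON 1. The fibroblast sums lay at 112 or above in CON and at 87.0 or below in PQQ. The median log2FC of the 11 fibroblast markers tested was only -0.08 in PQQ-L, and -1.06 in PQQ-H, so the sum does not describe each marker. The part of either list in the collagen values was not tested.

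The genes that make, cut, bind and break down collagen were read from 8 lists of 81 genes, 63 of which were tested. In PQQ-L 4 of the 63 were called lower and in PQQ-H 5, none was called higher, and the median log2FC was -0.27 and -0.36, beside -0.03 over all genes in both. The share of all genes called lower was the 0.471% and 0.819% given above. Fap, called in PQQ-H, was below 0.5 FPKM in every PQQ library and passed the mean through the CON libraries. These counts therefore describe the genes that passed and not the lists as a whole.

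For the enzymes that hydroxylate and glycosylate the chains, 0 of 14 were called, including Ppib, a cyclophilin that isomerizes prolines and the most abundant of the list, at 103 ± 13.7 FPKM in CON. Crtap, a partner of the prolyl 3-hydroxylase complex, was 4.80, 4.32 and 5.25 FPKM in CON, 1.91 to 2.99 in PQQ-L and 2.73 to 3.25 in PQQ-H. Its groups did not overlap, with a log2FC of -0.95 ± 0.137 in PQQ-L (limma adjusted p = 0.00854) and -0.68 ± 0.143 in PQQ-H (adjusted p = 0.0503). For folding and export, 0 of 8 were called. Sparc, the collagen-binding glycoprotein of this list with the highest level, was 137 to 286 FPKM in CON, 108 to 172 in PQQ-L and 92.4 to 187 in PQQ-H.

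In propeptide cleavage, the step that trims procollagen outside the cell, 2 of 5 genes fell in each group. Pcolce, an enhancer of the C-proteinase, was 14.4, 8.98 and 18.8 FPKM in CON, 1.81, 2.21, 2.16, 2.01 and 1.90 in PQQ-L, and 1.37, 1.74, 1.42 and 1.88 in PQQ-H. All CON libraries lay above the PQQ libraries, and the log2FC was -2.68 ± 0.200 (limma adjusted p = 2.92e-04) and -3.0 ± 0.209 (adjusted p = 4.86e-05). Pcolce2, the second enhancer, was 12.3, 6.96 and 13.2 FPKM in CON, 2.68 to 4.80 in PQQ-L and 2.30 to 5.65 in PQQ-H, with a log2FC of -1.57 ± 0.288 (limma adjusted p = 0.0343) and -1.49 ± 0.301 (adjusted p = 0.0414). The proteinase itself, Bmp1, was 4.63 to 5.47 FPKM in CON, 4.46 to 6.72 in PQQ-L and 5.37 to 7.07 in PQQ-H.

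For cross-linking, 0 of 2 tested lysyl oxidases were called, and Loxl3 was 1.21 ± 0.173 FPKM in CON. Of the collagen receptors 0 of 6 were called, and Itgb1, the shared integrin beta chain, was 17.6 to 22.2 FPKM in CON, 13.6 to 17.1 in PQQ-L and 12.8 to 16.7 in PQQ-H. Among 8 genes of degradation and uptake, Fap, a surface peptidase of activated fibroblasts, was called lower in PQQ-H. It was 1.72, 0.773 and 2.09 FPKM in CON, 0.155 to 0.473 in PQQ-L and 0.0945 to 0.331 in PQQ-H, without overlap, with a log2FC of -2.33 ± 0.432 (limma adjusted p = 0.0268). Mmp14, a membrane-bound collagenase, was 5.07 to 5.60 FPKM in CON, 2.87 to 4.01 in PQQ-L and 2.48 to 3.16 in PQQ-H. Its log2FC of -0.66 ± 0.121 and -0.93 ± 0.126 passed the adjusted p (0.0333 and 0.00414 in limma) but not the size. Timp2, an inhibitor of these proteases and the most abundant gene of the list, was 88.8 to 122 FPKM in CON and 42.5 to 156 in the PQQ groups.

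Of 8 collagen-binding matrix genes, Bgn and Tgfbi fell in both groups. Bgn encodes biglycan, a small proteoglycan that binds type I collagen, and was 10.6, 9.48 and 11.3 FPKM in CON, 4.54, 4.42, 4.82, 4.37 and 4.48 in PQQ-L, and 4.65, 5.39, 4.92 and 4.03 in PQQ-H. Its values were tight within groups and did not overlap, with a log2FC of -1.19 ± 0.0972 (limma adjusted p = 2.92e-04) and -1.13 ± 0.102 (adjusted p = 3.10e-04). Tgfbi, an adhesion protein that binds collagens, was 3.07, 2.45 and 3.67 FPKM in CON, 0.900 to 1.58 in PQQ-L and 0.878 to 1.74 in PQQ-H, with a log2FC of -1.28 ± 0.245 (limma adjusted p = 0.0444) and -1.22 ± 0.256 (adjusted p = 0.0488). Dcn, which encodes decorin and was the most abundant of the list, was 2.41, 25.4 and 7.83 FPKM in CON and 2.63 to 22.9 in the PQQ groups. Among 12 basement membrane partners none was called, and Agrn, which encodes the proteoglycan agrin, was 6.38 to 8.73 FPKM in CON and 7.20 to 9.73 in the PQQ groups. Lama5, a laminin chain, had a log2FC of -0.88 ± 0.152 in PQQ-H (limma adjusted p = 0.0192), below the size of a call.

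**Figure D5:**
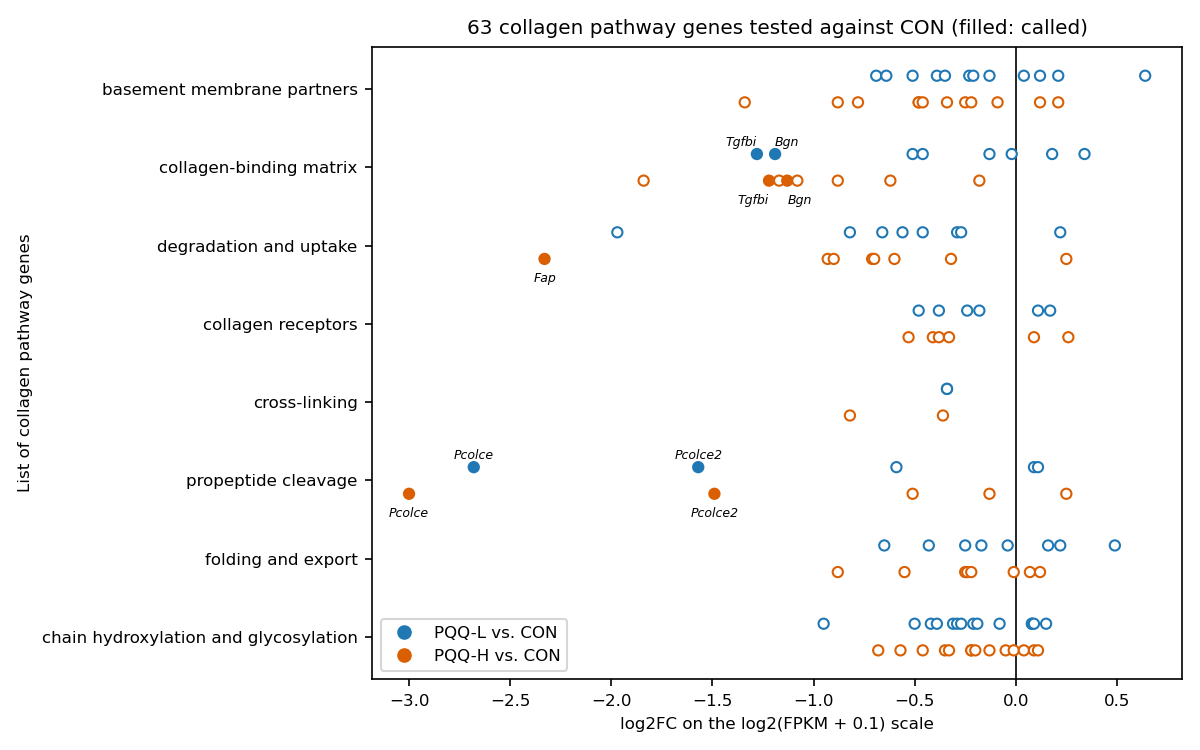
Log2FC of the 63 collagen pathway genes tested, by list, in PQQ-L and PQQ-H against the shared CON libraries on the log2(FPKM + 0.1) scale. Filled and named points were called, with Pcolce farthest at -3.0 in PQQ-H, and no filled point lies above 0.

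The counts of called collagen genes depended on single libraries. In PQQ-L, 1 was called without CON 1, CON 3 or PQQ-L 1, 2 without PQQ-L 2, PQQ-L 4 or PQQ-L 5, and 5 without CON 2, and Col9a3 was called in each of these. Without CON 2, 4 of the 5 were lower and Col25a1 was higher, where 431 genes were called lower and 434 higher of 13777 tested. In PQQ-H the count was 4 without CON 3, 5 without CON 1 or CON 2, and 6 without any other library. Without CON 1, CON 2 or CON 3, Col18a1 fell below the mean of 0.5 FPKM and was not tested. Col8a2 was tested without CON 3 and lost its call there.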

How the data were processed

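Hippocampal RNA for 12 libraries was extracted by the authors with TRIzol, sequenced on an Illumina NovaSeq instrument, filtered with fastp, mapped with HISAT2 and counted with HTSeq-count. The submitters' processing notes name the build mm39. Program versions, the annotation and the strandedness are not given in the sources used here, so reads of overlapping genes cannot be told apart. The authors tested their counts with DESeq2, which was not repeated here. FPKM were computed by the authors and deposited for 27833 genes, 174 of them at 0 in all libraries. The labels name the groups only C, L and H, which were read as CON, PQQ-L and PQQ-H.

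Read numbers were recovered from the FPKM as whole reads, with a tolerance of 0.02 reads for 25563 of 25563 genes above 0 in at least 2 libraries, which gave a median total of 35168171 reads per library. For genes above 0 in only a few libraries some whole numbers always match, so the match does not show that their reads were recovered. Read numbers limit the precision of low genes, and errors come from the spread between libraries. No 2 libraries of 1 group were duplicates (lowest chi-square per degree of freedom 17.6). Genes averaging at least 0.5 FPKM were tested on log2(FPKM + 0.1) with limma 3.58.1 (moderated test with trend, 1 fit of 12 libraries) in R 4.3.3, with Benjamini-Hochberg adjustment over all genes tested. Tables and figures used Python 3.11.15, numpy 2.4.6, pandas 2.3.3 and matplotlib 3.10.9. On simulated data, 197 of 200 genes lowered by 3 (log2) were recovered in PQQ-L along with 4 others, and 0 genes were called in PQQ-H, which held no change (13796 genes). The lowered genes were drawn from those with a mean log2(FPKM + 0.1) above 1, and each simulated library varied independently. The simulation therefore does not cover lower genes such as Col1a1, Col8a1 and Col18a1, smaller changes, or the striatal difference between the real libraries.

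The collagen genes, the pathway and marker lists and the tests were chosen with earlier results of these data known. The collagen genes named are those called, the 5 with the highest mean FPKM, the 5 with the largest |log2FC| in each comparison and known partner chains, and the pathway genes named are those called and the most abundant of each list. Crtap, Mmp14 and Lama5 were named after their values were seen, as were the remaining collagen genes below the mean of 0.5. Alternatives were another pseudocount, filter, scaling or fit, limma-voom on the recovered reads, the library letter or the replicate number in the fit, each library left out in turn and, chosen after seeing the data, the 4 libraries with a striatal sum above 1000 left out or a striatal score as a covariate. Promoter windows came from RefSeq on GRCm38.p6, whose positions were not converted.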

Additional observations from a re-analysis of the deposited data

Results flagged for a closer look

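Of 88 sets of values (44 collagen genes in PQQ-L and PQQ-H), 9 held 1 library that stood apart from the rest of its group by Dixon's 95% criterion, where chance gives about 1 in 20, or 4.40. CON has 3 libraries and was not tested. PQQ-L 3 accounted for 4 of the 9. In PQQ-L 3, Col8a2 was 1.86 FPKM, against 0.288 to 0.602 in the other PQQ-L libraries, Col6a3 was 0.275 (others 0.159 to 0.183), Col14a1 was 0.181 (others 0.0479 to 0.0820) and Col4a6 was 0.178 (others 0.0736 to 0.0840). Col13a1 was 0.250 in PQQ-L 1 (others 0.0910 to 0.134), and Col17a1 was 0.0206 in PQQ-L 4 (others 0 to 0.00531). In PQQ-H 4, Col4a3 was 0.0718 (others 0.0127 to 0.0138) and Col4a5 was 0.326 (others 0.174 to 0.191). In PQQ-H 2, Col23a1 was 0.867 (others 0.319 to 0.361). All of these lie above the rest of their group, and the cause was not tested.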

How the results depend on the processing

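All 27 alternatives left 0 collagen genes called in PQQ-H vs. PQQ-L. No called collagen gene turned its direction, and Col9a3 was called in both comparisons in each alternative other than the one without the 4 libraries of high striatal sum. The number of collagen genes called in PQQ-L (3) stayed within 1.5 times in 16 of 27 alternatives and that in PQQ-H (6) in 21. At a mean FPKM of at least 1, which leaves 11 collagen genes, with only the 2 groups compared, and with the replicate number as a block, the counts were 1 (PQQ-L) and 3 (PQQ-H). With array quality weights it was 1 in both, with a pseudocount of 1 it was 3 in PQQ-H, with limma-voom 7 in PQQ-L, with the striatal score 1 in PQQ-L, and without the 4 libraries 0 in both. Leaving out 1 library gave 1 to 5 in PQQ-L (the 5, without CON 2, include Col25a1 called higher) and 4 to 6 in PQQ-H, with the mean of 0.5 FPKM applied anew.

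The pathway genes called were 4 in PQQ-L and 5 in PQQ-H. With array quality weights or the replicate block, 2 were called in each. With a pseudocount of 1, a mean of at least 1, median-of-ratios scaling or quantile normalization there were 3 in PQQ-H, with only the 2 groups compared or with the library letter 2, and without the 4 libraries 1 in each. Leaving out 1 library gave 2 to 6 in PQQ-L, with 2 without CON 1, CON 3, PQQ-L 2, PQQ-L 4, PQQ-L 5 or PQQ-H 4. In PQQ-H it gave 2 to 6, with 2 without CON 1, CON 3, PQQ-H 3 or PQQ-H 4 and 3 without PQQ-L 2, PQQ-L 3, PQQ-L 4 or PQQ-L 5. The cause was not tested.

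Same-numbered libraries of different groups had correlations of their deviations from -0.619 (CON 2 and PQQ-H 2) to 0.717 (CON 1 and PQQ-H 1). CON 1, PQQ-H 1 and PQQ-H 2 had high striatal sums and CON 2 a low one. These correlations therefore cannot decide whether the replicate numbers pair the libraries. Low reads limit Col8a2 in PQQ-H (1 to 47 reads) and Col17a1, and 3 CON libraries limit every comparison.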
